A study of Mus musculus with 16 samples.

Results

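The transcripts described here encode the nuclear-encoded subunits of 3 machines of the mitochondrial inner membrane and the carrier between them in mouse quadriceps. They were taken by symbol: Sdha to Sdhd for complex II, the symbols starting with Uqcr together with Cyc1 for complex III, Cycs for cytochrome c, and the symbols starting with Atp5 for ATP synthase. The rule took 31 of the 19108 genes listed in every library, with 4 in complex II, 9 in complex III, 1 for cytochrome c and 17 in ATP synthase. It works on symbols and uses no measured value, but it was chosen with earlier results of these data known. The tissue was snap-frozen quadriceps of C57BL/6 mice aged 6 months on regular chow. The groups were 4 females and 4 males of genotype ANT1(Tg)/+, called Tg, which carry additional Ant1, and 4 females and 4 males called WT, with littermates as controls where the submitters had them. Ant1 is the older name of Slc25a4, the adenine nucleotide translocase of heart and muscle, which exchanges ADP and ATP across the inner membrane. The sources used here do not give the promoter of the transgene or which mice were littermates. By its title the study concerns the cytosol's handling of mitochondrial stress and the loss of muscle.

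Complex II, succinate dehydrogenase, oxidises succinate in the citric acid cycle and passes the electrons to ubiquinone. Complex III takes them from ubiquinol, pumps protons and reduces cytochrome c, the small soluble carrier that delivers electrons to complex IV. ATP synthase lets the protons back through its membrane sector Fo, whose ring of c subunits turns the stalk inside the catalytic head F1, and the ATP made there leaves the matrix through the translocase that the transgene encodes. Muscle is rich in all of these transcripts. All 31 members are encoded in the nucleus, on 16 chromosomes. The subunits of complex III and ATP synthase that mitochondrial DNA encodes were not analysed here.

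The ring of ATP synthase shows why transcripts must be told apart by sequence, because 3 genes encode the same mature c subunit. The last 225 coding bases before the stop codon of each are given 5′ to 3′ from the GENCODE M21 transcripts (build GRCm38), with capitals at the 57 positions where the 3 genes are not identical. Atp5g1 lies on chromosome 11, Atp5g2 on chromosome 15 and Atp5g3 on chromosome 2, all on the minus strand.
Atp5g1: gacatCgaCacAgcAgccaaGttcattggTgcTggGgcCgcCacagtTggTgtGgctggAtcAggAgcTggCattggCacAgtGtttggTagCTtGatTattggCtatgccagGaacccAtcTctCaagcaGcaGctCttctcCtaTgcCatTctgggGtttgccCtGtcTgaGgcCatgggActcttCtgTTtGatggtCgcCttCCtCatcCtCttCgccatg
Atp5g2: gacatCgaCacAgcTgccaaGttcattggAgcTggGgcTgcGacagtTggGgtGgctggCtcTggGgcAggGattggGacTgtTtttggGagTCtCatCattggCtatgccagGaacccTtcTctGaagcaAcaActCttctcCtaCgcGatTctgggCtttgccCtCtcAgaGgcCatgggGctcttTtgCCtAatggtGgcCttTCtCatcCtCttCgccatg
Atp5g3: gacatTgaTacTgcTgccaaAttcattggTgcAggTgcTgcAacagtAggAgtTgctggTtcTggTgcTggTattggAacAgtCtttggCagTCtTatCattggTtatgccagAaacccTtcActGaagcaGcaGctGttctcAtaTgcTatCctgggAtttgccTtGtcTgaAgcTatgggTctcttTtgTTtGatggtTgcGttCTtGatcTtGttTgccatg
Every one of the 75 codons has the same meaning in all 3 genes, although only 168 of the 225 bases are shared by all of them. Atp5g1 and Atp5g2 were identical at 84.9% of these bases, Atp5g1 and Atp5g3 at 80.0%, and Atp5g2 and Atp5g3 at 78.7%. The longest run of bases shared by a pair anywhere in the coding sequence was 20, 11 and 8 bases in the same order, against reads of 75 bases.

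RefSeq promoters (build GRCm38.p6, from 250 bases before to 50 after a start) were at hand for 23 of the 31 members, as 26 promoters. They were searched on both strands for 4 short motifs, and none of their 25 matches in these promoters overlapped a match of another motif. The palindrome of the type bound by the nuclear respiratory factor NRF1 was present in 9 of the 26 promoters (34.6%), against 1512 of all 32851 (4.6%). CCGGAAG, the type bound by GABP and other ETS factors, was present in 10 (38.5%), against 2910 of all (8.86%). TGACGTCA, the cyclic AMP response element, was present in those of Cycs and Uqcrfs1 (7.7%), against 588 of all (1.79%). TGATGCAA, the type bound by ATF4 at amino acid response elements, was present in 0 of 26, against 294 of all (0.89%). Stretches of 46 to 80 bases before the start are shown for 4 members whose levels differed between genotypes, with the motif in capitals and 5′ to 3′ on the gene's strand. For Cycs this is chr6:50566695-50566774 (minus strand, TGACGTCA), for Uqcrh chr4:116075071-116075116 (minus strand, CCGGAAG on the other strand), for Atp5j chr16:84834995-84835073 (minus strand, CCGGAAG, before 1 of its 2 starts), and for Atp5g2 chr15:102671048-102671125 (minus strand, NRF1 type).
Cycs: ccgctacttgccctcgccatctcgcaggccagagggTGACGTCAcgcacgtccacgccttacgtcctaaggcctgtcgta
Uqcrh: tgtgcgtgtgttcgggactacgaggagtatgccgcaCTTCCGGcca
Atp5j: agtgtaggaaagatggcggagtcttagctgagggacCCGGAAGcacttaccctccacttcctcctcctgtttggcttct
Atp5g2: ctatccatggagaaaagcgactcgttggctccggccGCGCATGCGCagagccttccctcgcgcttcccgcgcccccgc
The first 3 of these belong to transcripts that were lower in Tg muscle and the fourth to one that was higher. They are a selection of the matches. CCGGAAG was also present in a promoter of Sdhb, which was higher in Tg muscle. Averaged over the sexes, the other members with the NRF1 type were not called at an adjusted p under 0.05. Their log2 fold changes lay on both sides of 0. A relation between motif and direction was not tested. A match describes the letters in the window and no binding was measured.

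The libraries held 17435895 to 30680324 counts, and the 31 members took 1.08 to 1.58% of them. The lowest count of any member in any library was 1651, so all 31 passed the filter on low counts. Levels are given as CPM, counts scaled to the same library size, with sizes multiplied by edgeR's TMM factors. Slc25a4 checked the genotype labels: its 8 Tg libraries held 8507 to 11044 CPM and the 8 WT libraries 2792 to 3919 CPM. All 5 muscle markers (Ckm, Acta1, Mb, Des and Ttn) were present in each group, at a summed 58463 to 85603 CPM in Tg and 59649 to 88692 CPM in WT libraries. A pair of libraries stood apart by base composition. Over all tested genes with a coding sequence, the deviation of log2 CPM from the gene's mean changed with each 10 points of GC content by 0.24 in Tg male 2 and by -0.37 in WT female 3, against -0.05 to 0.09 in the other 14. Brown adipocyte markers were present in Tg female 4 and in WT females 1 and 2, with a summed 359, 224 and 238 CPM in that order, against 0.32 to 13.5 CPM elsewhere. Values without these libraries stand beside several of the results. In whole muscle, fewer cells of a type and less RNA per cell cannot be told apart.

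Averaged over the sexes, the complexes did not move as blocks. In Tg muscle 7 members rose, namely Uqcrq, Atp5d, Sdhb, Cyc1, Uqcr10, Atp5b and Atp5g2, and 3 fell, namely Cycs, Atp5j and Uqcrh. The largest difference was that of Uqcrq, a small subunit of complex III, at 1.52 times the WT level, and the other 9 differed by less than 1.3 times. Calls rest on edgeR's quasi-likelihood test of all 13666 tested genes, with the Benjamini-Hochberg adjusted p under 0.05. The 10 calls are 32.3% of the members, against 30.4% of all tested genes (17.2% higher and 13.3% lower), so the share called was near the background. The median log2 fold change was 0.02 over the members and -0.01 over all tested genes. It was 0.12 in complex II, 0.02 in complex III, 0.08 in F1 and -0.06 in Fo. With RLE size factors 3 members were called higher and 5 lower, and with library totals alone 10 higher and 0 lower. Without Tg female 2, WT male 3 or WT male 4 the number of members called was 5, and without Tg female 4, Tg male 1 or WT male 1 it was 6. Over all tested genes the calls were 2344 higher and 1814 lower with TMM factors, and 2998 higher and 1230 lower with library totals alone.

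**Figure D1:**
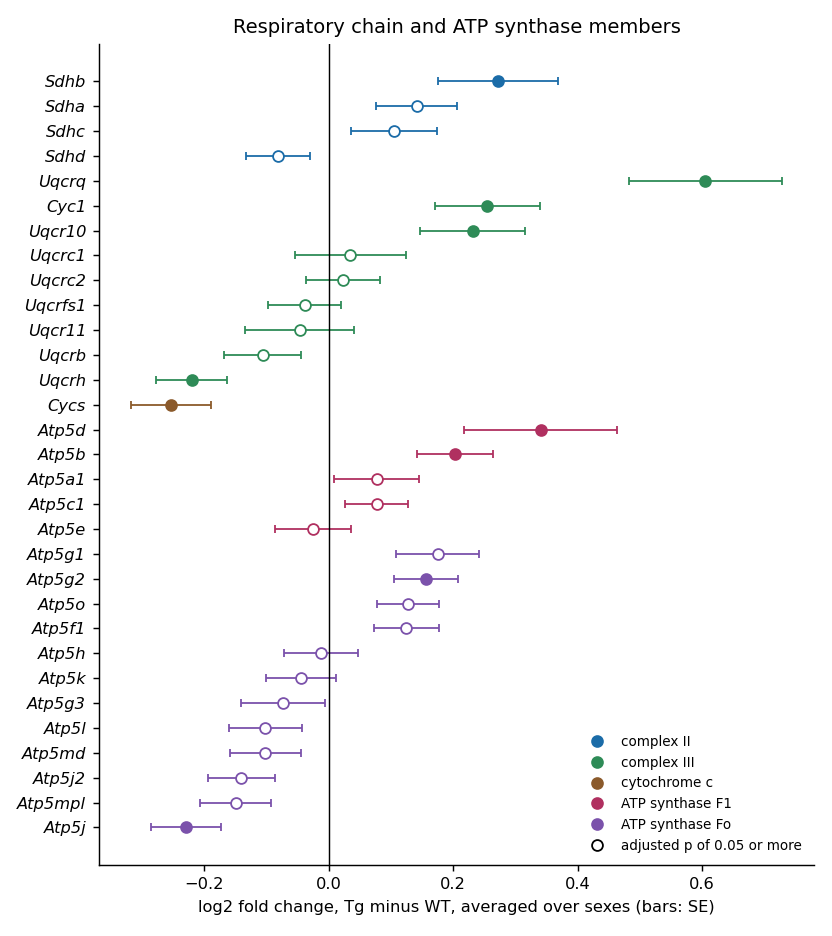
Log2 fold change of each of the 31 members, Tg minus WT averaged over the sexes (x axis; bars are SE), ordered within complex II, complex III, cytochrome c, F1 and Fo. Filled points are the 10 members with an adjusted p under 0.05, 7 above 0 and 3 below; Uqcrq lies farthest to the right at 0.61.

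The summed level of all 31 members lay between 12593 and 14687 CPM in Tg libraries (median 14189) and between 11196 and 14958 CPM in WT libraries (median 13260), so the genotypes overlapped. ATP synthase took the most, at 9090 ± 465 CPM in Tg and 8548 ± 675 CPM in WT (SD, n = 8 each). The sum of the F1 members was 5843 ± 278 CPM in Tg and 5307 ± 485 CPM in WT, while that of the Fo members was 3246 ± 206 CPM in Tg and 3241 ± 207 CPM in WT. Complex III summed to 2665 ± 155 CPM in Tg and 2546 ± 231 CPM in WT, and complex II to 1789.8 ± 104 CPM in Tg and 1632 ± 164 CPM in WT. The ranges of the genotypes overlapped for each of these sums, and no test was run on them.

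In complex II only Sdhb, which carries the iron-sulfur clusters that lead electrons from the flavin to ubiquinone, was called. It lay between 318 and 422 CPM in Tg libraries (median 373) and between 226 and 394 CPM in WT libraries (median 308), with overlap. The difference was 0.27 on the log2 scale (SE 0.10, adjusted p = 0.0421). The call held in 5 of the 16 fits that left out 1 library each (without Tg female 1, Tg male 3, WT female 2, WT female 4 or WT male 2) and was lost in the other 11, with an adjusted p of up to 0.0871. It was 0.22 (adjusted p = 0.0591) without Tg male 2 and WT female 3. The deposited Sdhb values were fractional in all 16 libraries, so its level is uncertain where reads were shared with another gene. Sdha, the flavoprotein that binds succinate and the most abundant of the complex per length at 315 CPM per kilobase, lay between 869 and 1022 CPM in Tg (median 971) and between 748 and 1031 CPM in WT libraries (median 866). Its log2 fold change of 0.14 (SE 0.07, adjusted p = 0.115) did not pass. The membrane anchors that hold the haem and the ubiquinone site did not pass either, with log2 fold changes of 0.10 for Sdhc and -0.08 for Sdhd.

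In complex III, Uqcrq, Cyc1 and Uqcr10 rose, Uqcrh fell, and the other 5 did not pass. Uqcrq, a small subunit that contacts cytochrome b, lay between 189 and 304 CPM in Tg libraries (median 237) and between 88.1 and 179.5 CPM in WT libraries (median 165). Every Tg library was above every WT library, which held for no other member, and no member had every Tg library below every WT library. Of all tested genes 7.92% had no overlap between the genotypes, 5.23% with Tg above and 2.69% with Tg below. The log2 fold change was 0.61 (SE 0.12, adjusted p = 0.0015). WT female 3 was the lowest at 88.1 CPM and Tg male 2 the highest at 304 CPM. Without both, the log2 fold change was 0.45 (adjusted p = 0.000109), and with a correction for GC content in each library it was 0.55 (adjusted p = 0.000614). Uqcrq passed in each of the 26 alternative fits. Its deposited values were fractional in 14 of the 16 libraries, and its level is uncertain where reads were shared with another gene.

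Cyc1, cytochrome c1, is the haem protein of complex III that hands electrons to cytochrome c. It lay between 300.2 and 368 CPM in Tg libraries (median 344) and between 196 and 342 CPM in WT libraries (median 292), and the ranges overlapped. The log2 fold change was 0.25 (SE 0.08, adjusted p = 0.0309), and 0.17 (adjusted p = 0.045) without Tg male 2 and WT female 3. The call was lost without Tg female 2, Tg female 4, Tg male 1, Tg male 2, WT male 1, WT male 3 or WT male 4, with an adjusted p of up to 0.0672. Uqcr10, another small subunit, lay between 193 and 290.2 CPM in Tg libraries (median 215) and between 143.5 and 209 CPM in WT libraries (median 194). Its log2 fold change of 0.23 (SE 0.08, adjusted p = 0.048) held only in the fits without Tg male 3, Tg male 4 or WT female 4 among the 16 that left out 1 library, with an adjusted p of up to 0.0914 in the others. Without Tg male 2 and WT female 3 it was 0.12 (adjusted p = 0.102). The deposited Uqcr10 values were fractional in 15 libraries, with the same uncertainty as for Uqcrq.

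Uqcrh, the acidic hinge protein at the docking site of cytochrome c, went the other way. It lay between 178 and 252 CPM in Tg libraries (median 228) and between 234 and 271 CPM in WT libraries (median 260.5). Tg female 3 and Tg male 1 overlapped with the WT range and the other 6 Tg libraries lay below it. The log2 fold change was -0.22 (SE 0.06, adjusted p = 0.00776), and it was lost only with library totals alone among the 26 alternatives (adjusted p = 0.171). The members that did not pass were the core proteins Uqcrc1 (log2 fold change 0.03) and Uqcrc2 (0.02), the Rieske iron-sulfur protein Uqcrfs1 (-0.04), and the small subunits Uqcr11 (-0.05) and Uqcrb (-0.11). Within this complex the ratio of Uqcrq to Uqcrh CPM was 1.10 ± 0.257 in Tg and 0.609 ± 0.0956 in WT libraries (SD, n = 8 each). It ran from 0.933 to 1.71 in Tg and from 0.377 to 0.663 in WT libraries without overlap. Tg male 2 was the highest and WT female 3 the lowest, and without both it ran from 0.933 to 1.12 in Tg and from 0.617 to 0.663 in WT. These genes had the highest and the lowest log2 fold change of the complex, and Uqcrq alone already separated the genotypes. The separation of their ratio therefore restates those calls and is no further evidence. No test was run on the ratio.

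Cycs, cytochrome c itself, fell in Tg muscle while Cyc1, its electron donor, rose. Cycs lay between 324 and 505 CPM in Tg libraries (median 443) and between 491 and 549 CPM in WT libraries (median 526). The log2 fold change was -0.25 (SE 0.06, adjusted p = 0.00627), and -0.21 both without Tg male 2 and WT female 3 (adjusted p = 0.00566) and with the correction for GC content (adjusted p = 0.0119). It passed in 25 of the 26 alternatives, the exception being library totals alone (adjusted p = 0.0923). The ratio of Cycs to Cyc1 CPM was 1.30 ± 0.202 in Tg and 1.87 ± 0.314 in WT libraries (SD, n = 8 each). Its range was 0.887 to 1.52 in Tg and 1.60 to 2.63 in WT, and without Tg male 2 and WT female 3 it was 1.22 to 1.52 in Tg and 1.60 to 1.84 in WT, so the genotypes did not overlap either way. The ratio sets a member called lower against one called higher in the same libraries. Its separation therefore partly restates those calls and is no independent evidence. No test was run on this ratio.

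**Figure D2:**
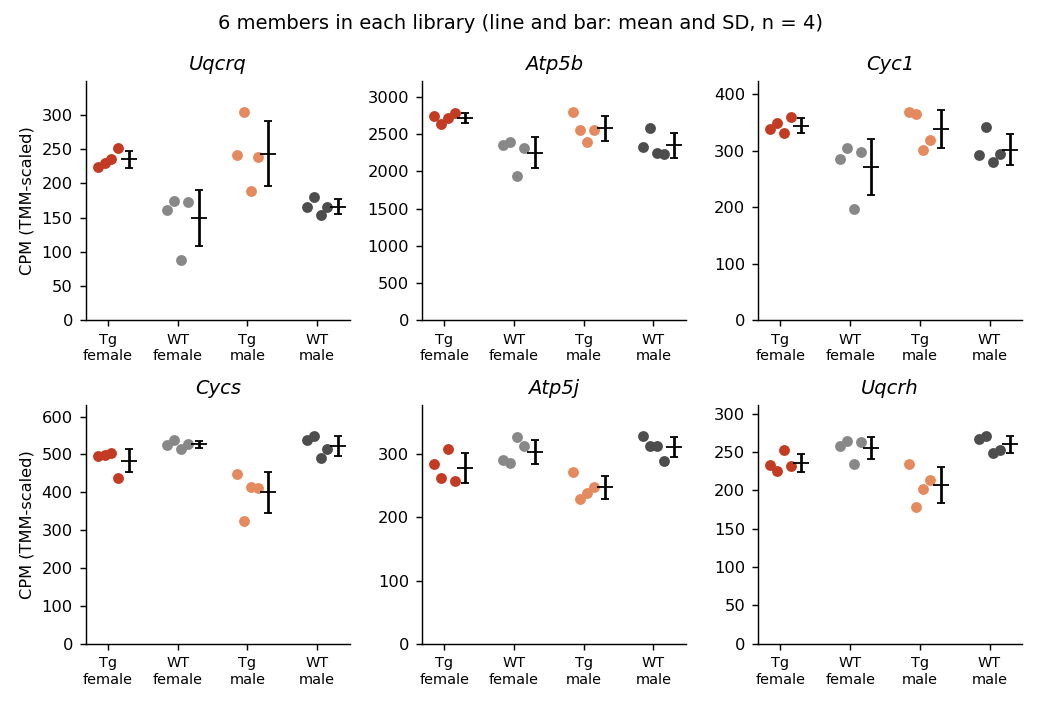
TMM-scaled CPM (y axis, from 0) of 6 members in each library of the 4 groups; black lines and bars are the mean and SD of 4 libraries. Uqcrq is higher in all 8 Tg libraries than in all 8 WT libraries, while Cycs, Atp5j and Uqcrh are lower in Tg males (324 to 449.5 CPM for Cycs) than in WT males (491 to 549 CPM).

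In the catalytic head of ATP synthase, Atp5b and Atp5d rose and none of the 5 members fell. Atp5b encodes the beta subunit that makes ATP and was the most abundant member per length, at 1291 CPM per kilobase. It lay between 2399 and 2796 CPM in Tg libraries (median 2673) and between 1942 and 2585 CPM in WT libraries (median 2319). WT male 2 was the only WT library above the lowest Tg value. Its log2 fold change was 0.20 (SE 0.06, adjusted p = 0.019) and it passed in each of the 26 alternatives, at 0.17 to 0.27. Atp5d, the delta subunit of the central stalk, lay between 211 and 363 CPM in Tg libraries (median 262) and between 119 and 237 CPM in WT libraries (median 226). WT female 3 was the lowest and Tg male 2 the highest. The difference on the log2 scale was 0.34 (SE 0.12, adjusted p = 0.0474), and 0.18 (adjusted p = 0.0424) without both. The call held only without Tg male 3, WT female 2, WT female 3 or WT female 4 among the 16 fits that left out 1 library, with an adjusted p of up to 0.102 in the other 12. Atp5d has exons that overlap the protein-coding gene Cbarp on the opposite strand, and its values were fractional in 15 libraries. The alpha subunit Atp5a1 (log2 fold change 0.08), the gamma shaft Atp5c1 (0.08) and the epsilon subunit Atp5e (-0.02) did not pass.

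In the membrane sector and stalks, 1 of 12 members rose (Atp5g2) and 1 fell (Atp5j). Atp5j encodes coupling factor F6 of the peripheral stalk. It lay between 229.8 and 308 CPM in Tg libraries (median 259.5) and between 286 and 329 CPM in WT libraries (median 312), with overlap. On the log2 scale the difference was -0.23 (SE 0.06, adjusted p = 0.00526), and -0.16 (adjusted p = 0.0267) with the correction for GC content. It passed in 25 of the 26 alternatives, the exception being library totals alone (adjusted p = 0.0731). Its values were fractional in all 16 libraries, and its exons overlap those of Gabpa, on the opposite strand, which lay between 35.4 and 44.4 CPM in Tg and between 34.1 and 40.02 CPM in WT libraries. The libraries were made with a stranded kit, and the sources used here do not say whether the counting used strand.

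The other Fo members ranged in log2 fold change from -0.15 to 0.17. Those above 0 were Atp5g1 (0.17), the stalk subunit OSCP encoded by Atp5o (0.13) and the stalk subunit b encoded by Atp5f1 (0.12). Those below 0 were the stalk subunit d encoded by Atp5h (-0.01), the membrane subunits Atp5k (-0.04), Atp5l (-0.10), Atp5md (-0.10), Atp5j2 (-0.14) and Atp5mpl (-0.15), and Atp5g3 (-0.07). Atp5l was the most abundant of the sector per length, at 602 CPM per kilobase. It lay between 279 and 346 CPM in Tg libraries (median 313) and between 295 and 402 CPM in WT libraries (median 329.9), with overlap. None of these 10 members passed.

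The c ring drew on all 3 genes. Atp5g2 lay between 195 and 227 CPM in Tg libraries (median 209.6) and between 170.1 and 206 CPM in WT libraries (median 189.8), and the difference was 0.16 on the log2 scale (SE 0.05, adjusted p = 0.0287). That call was lost without Tg female 1, Tg female 2, Tg male 1, WT female 3, WT male 3 or WT male 4 (adjusted p of up to 0.0675), and with the correction for GC content (0.10, adjusted p = 0.24). Atp5g1 lay between 297 and 374 CPM in Tg libraries (median 349.8) and between 236 and 357 CPM in WT libraries (median 319.97), at 0.17 (SE 0.07, adjusted p = 0.0605). Atp5g3 lay between 281 and 348 CPM in Tg libraries (median 319.5) and between 258 and 372 CPM in WT libraries (median 339), at -0.07 (SE 0.07, adjusted p = 0.44).

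As shares of their summed CPM per kilobase, which cancels the scaling of a library, the genes stood in another proportion in the genotypes. Atp5g3 made up 29.6 ± 1.0% of c-subunit transcripts in Tg and 33.2 ± 1.6% in WT muscle (SD, n = 8 each), while Atp5g1 made up 38.4 ± 0.9% in Tg and 36.3 ± 1.6% in WT. Atp5g2 made up 31.9 ± 0.7% in Tg and 30.6 ± 1.7% in WT. The share of Atp5g3 ran from 28.6 to 31.6% in Tg and from 31.5 to 36.3% in WT libraries, the overlap being Tg male 2. Without that library and WT female 3 it ran from 28.6 to 30.2% in Tg and from 31.5 to 36.3% in WT. No test was run on the shares, and lengths are those of 1 principal annotated transcript per gene. That of Atp5g2 has 441 bases, 438 of them coding, against 596 (408 coding) for Atp5g1 and 714 (423 coding) for Atp5g3. In plain CPM, without lengths, Atp5g3 made up 36.4% in Tg and 40.3% in WT, and Atp5g1 39.4% and 36.8%. Atp5g2 made up 24.2% in Tg and 22.96% in WT. The order of Atp5g1 and Atp5g3 in WT thus depended on the lengths, while each gene's direction between genotypes did not. Deposited values were fractional in 15 libraries for Atp5g1, in 14 for Atp5g3 and in 0 for Atp5g2, so the shares are uncertain where reads of Atp5g1 or Atp5g3 were shared with another gene. Shares do not cancel a library's relation to GC content, and the coding GC content was 49.41% for Atp5g3, 56.86% for Atp5g1 and 56.85% for Atp5g2. With the correction for GC content the log2 fold changes were -0.07, 0.12 and 0.10 in that order, and none was called. The shares restate the differences of these genes and are no further evidence.

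**Figure D3:**
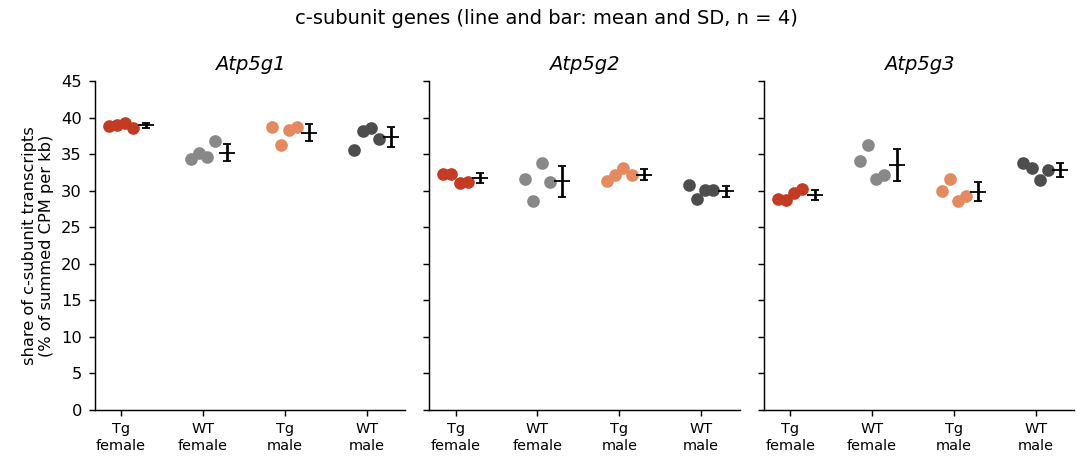
Share of Atp5g1, Atp5g2 and Atp5g3 in the summed CPM per kilobase of the 3 c-subunit genes (y axis, percent, from 0) in each library of the 4 groups; black lines and bars are the mean and SD of 4 libraries. Atp5g3 averages 29.4% in Tg females, 33.5% in WT females, 29.9% in Tg males and 32.8% in WT males.

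The sexes differed in which members passed. In females 5 members rose (Uqcrq, Atp5b, Atp5g1, Atp5g2 and Atp5o) and 0 fell, which is 16.1% of the members against 17.7% of all tested genes (10.1% higher, 7.57% lower). In males 1 rose (Uqcrq) and 5 fell (Cycs, Atp5j, Uqcrh, Atp5mpl and Atp5j2), which is 19.4% against 18.2% of all tested genes (9.85% higher, 8.39% lower). The median log2 fold change of the members was 0.12 in females and -0.08 in males, beside -0.03 and 0.03 over all tested genes. In females the 4 Tg libraries lay above the 4 WT libraries without overlap for 10 members and below for 1, against 10.8% and 7.22% of all tested genes. In males they lay above for 1 and below for 6, against 14% and 11.7% of all tested genes.

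Atp5g1 had 368, 366, 361 and 337 CPM in Tg females, against 271, 289, 236 and 326 CPM in WT females, without overlap (log2 fold change 0.35, SE 0.10, adjusted p = 0.0186). In males it had 374, 297, 314 and 339 CPM in Tg, against 322, 357, 328 and 318 CPM in WT, where the groups overlapped (adjusted p = 0.994). Atp5o had 446, 431, 448 and 421 CPM in Tg females, against 364, 369.6, 351 and 409.9 CPM in WT females, again without overlap (0.22, SE 0.07, adjusted p = 0.0368). The summed level of all 31 members lay between 14102 and 14671 CPM in Tg females, against 11196 to 13550 CPM in WT females, without overlap. As a percentage of library totals, without TMM factors, it was 1.33 to 1.58% in Tg females and 1.08 to 1.49% in WT females, with WT female 2 above Tg females 1 and 2. In males it lay between 12593 and 14687 CPM in Tg, against 12946 to 14958 CPM in WT, with overlap. Cycs had 449.5, 324, 415 and 412 CPM in Tg males, against 538, 549, 491 and 514 CPM in WT males (-0.39, SE 0.09, adjusted p = 0.00679). It was also lower without overlap in females, at 496, 498, 505 and 437 CPM in Tg against 525, 539, 516 and 527 CPM in WT, but did not pass there (-0.12, SE 0.09, adjusted p = 0.37). Atp5j had 272, 229.8, 239 and 248 CPM in Tg males, against 329, 314, 312 and 289.6 CPM in WT males (-0.33, SE 0.08, adjusted p = 0.00822). Uqcrh had 235, 178, 202 and 213 CPM in Tg males, against 267, 271, 248 and 253 CPM in WT males (-0.33, SE 0.08, adjusted p = 0.00969). For these 3 genes every Tg male was below every WT male. Uqcrq passed in both sexes, at 0.66 in females (SE 0.17, adjusted p = 0.017) and 0.55 in males (SE 0.17, adjusted p = 0.0377). In males that call was lost without Tg male 1, 2 or 4 or any 1 of the 4 WT males (adjusted p of up to 0.123), with RLE factors, with limma-voom, without the 4 adipocyte-rich libraries (0.41, adjusted p = 0.2) and without the 3 with brown adipocyte markers (0.52, adjusted p = 0.0642).

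The test of the difference itself called 0 members in edgeR, against 0.00732% of all tested genes, with 4 at an unadjusted p under 0.05. DESeq2 and limma-voom also called 0, with 12 and 5 at an unadjusted p under 0.05. A different effect in the sexes is therefore not shown for any single member. The estimates of that difference, the male minus the female log2 fold change, were negative for all 31 members (median -0.18, from -0.35 for Atp5g1 to -0.04 for Sdhd), while they were negative for 45.4% of all tested genes (median 0.02). The members were measured in the same 16 libraries and are not independent of each other. Without WT female 3 the estimates were negative for 27 of 31, without WT female 3 and Tg male 2 for 30, without Tg male 3 for 29, without WT male 2 for 30, and with library totals alone for 30. Library totals alone moved the median of all tested genes in males from 0.03 to 0.13 and left 1 member called in males, Uqcrq, in place of 6. Without WT female 3 only Uqcrq was called in females, and likewise without WT female 1 and without the 3 libraries with brown adipocyte markers. Without Tg female 1, 2 or 3 only Uqcrq and Atp5g1 were called. The male count fell to 3 without WT male 1, 2 or 3 or Tg male 2 or 4, with Cycs, Atp5j and Uqcrh called in each case, and to 4 without Tg male 3.

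**Figure D4:**
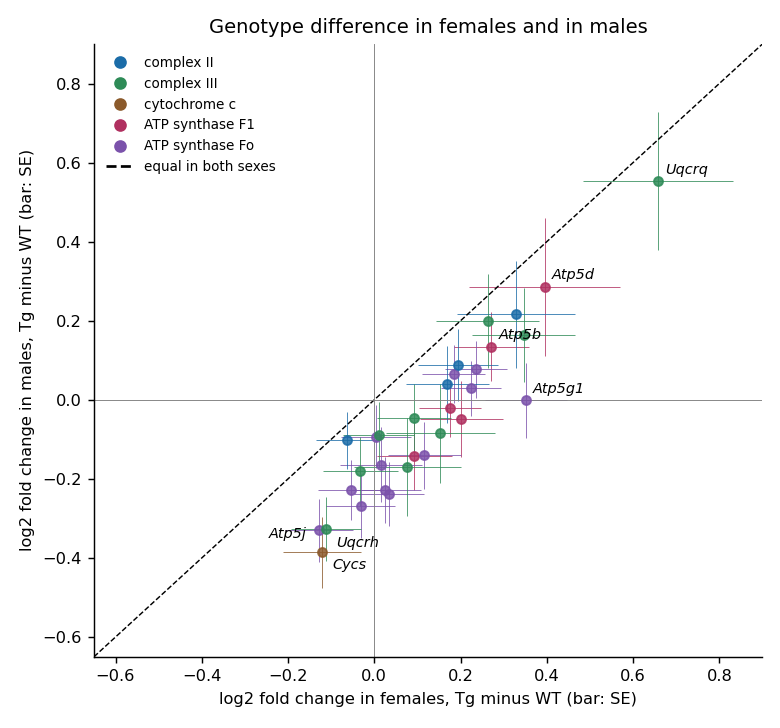
Log2 fold change, Tg minus WT, of the 31 members in females (x axis) and in males (y axis), with SE bars; the dashed line marks equal values. All 31 points lie below the line, and Uqcrq is the only member called in both sexes, its male call being lost in 7 of the 16 fits that left out 1 library and with RLE factors, limma-voom or either set of adipocyte libraries left out.

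Between WT males and WT females 0 members were called by edgeR, against 3.67% of all tested genes (2.01% higher in males, 1.65% lower), with 3 at an unadjusted p under 0.05. DESeq2 called 1, Atp5l, at the same threshold, and limma-voom 0. The male minus female estimate was positive for 24 of the 31 members with a median of 0.09 on the log2 scale, beside -0.03 over all tested genes. Without WT female 3 it was positive for 18, with a median of 0.02.

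Base composition differed between the called members that rose and those that fell. Its part in the members' differences was not tested. The 7 members that rose had coding sequences of 53.2 to 61.9% GC and the 3 that fell had 43.5 to 50.2%, in a range of 41.4 to 61.9% over all 31. Members that were not called lay in both ranges. Some went against this order, as Uqcr11 (60.7% GC, log2 fold change -0.05), Sdhd (57.9%, -0.08) and Atp5f1 (47.1%, 0.12). Others went with it, as Atp5g1 (56.9%, 0.17) and Atp5mpl (43.7%, -0.15). Across the 31 genes, which share all libraries and are no independent replicates, the correlation of the averaged log2 fold change with coding GC content was r = 0.59 (Spearman's rho = 0.60). WT female 3 was the lowest of all 16 libraries for 17 members and Tg male 2 for 8, while Tg male 2 was also the highest for 3. WT male 2 was the highest for 13, but its change per 10 points of GC content was -0.02, within the range of the 14 ordinary libraries. With a correction for GC content in each library the correlation was r = 0.37 (rho = 0.35). The calls were then Uqcrq, Cyc1, Atp5b, Atp5d and Atp5f1 higher and Cycs, Uqcrh, Atp5j and Atp5j2 lower. Without Tg male 2 and WT female 3 they were Uqcrq, Cyc1, Atp5b, Atp5d and Atp5g2 higher and Cycs, Uqcrh, Uqcr11, Atp5j and Atp5j2 lower. Uqcrq, Cyc1, Atp5b, Atp5d, Cycs, Uqcrh and Atp5j were thus called with all libraries and in both of these fits, while Sdhb and Uqcr10 were called in neither of them.

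**Figure D5:**
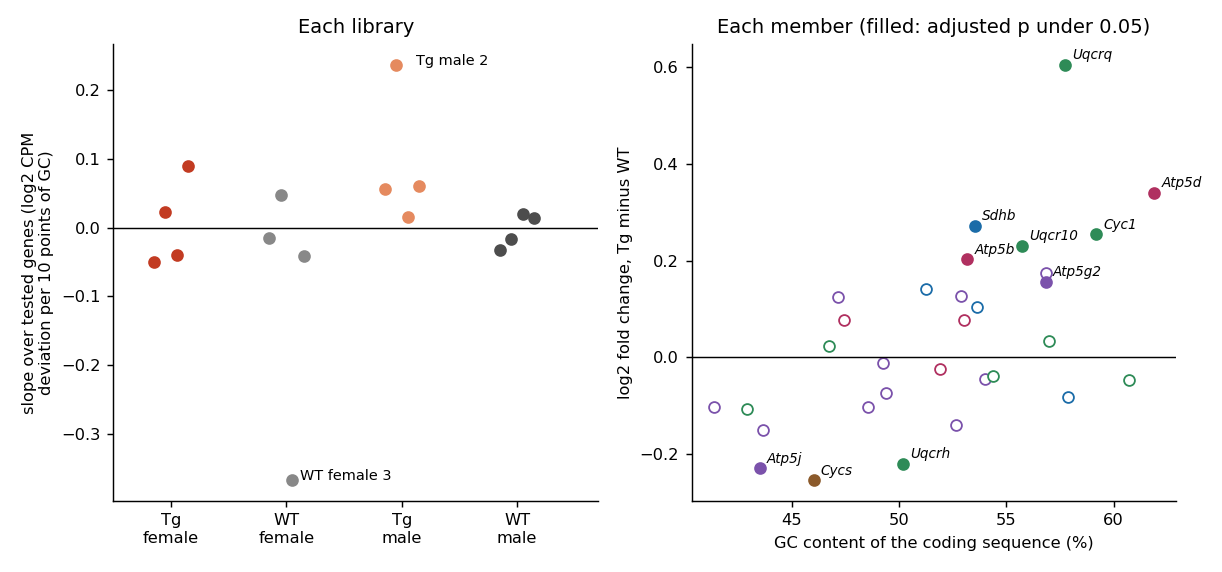
Left, change of log2 CPM deviation per 10 points of coding GC content over all tested genes (y axis) in each library of the 4 groups; Tg male 2 (0.24) and WT female 3 (-0.37) stand apart. Right, log2 fold change, Tg minus WT averaged over the sexes (y axis), of the 31 members against the GC content of their coding sequence (x axis), filled where the adjusted p is under 0.05.

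Fibre and fat markers also differed between libraries. Of 11 slow-fibre markers 8 rose in Tg muscle and 0 fell, against 17.2% and 13.3% of all tested genes. In females 6 were called higher (10.1% of all tested genes) and in males 1 (9.85%). Their summed level was 110 to 1318 CPM in Tg and 67.0 to 209 CPM in WT libraries. The highest sum was that of Tg female 2, and the next was 304 CPM in Tg male 1. Tg female 1 and Tg males 2, 3 and 4 lay within the WT range. Myh2, the myosin of oxidative fast fibres, lay between 779 and 3856 CPM in Tg and between 110 and 2373 CPM in WT libraries (log2 fold change 1.64, SE 0.60, adjusted p = 0.0541). Of 6 markers of fast glycolytic fibres, 2 fell (Myh4 and Tnnt3). Of 8 white adipocyte markers 0 were called, with a summed 345 to 1830 CPM in Tg and 432 to 3062 CPM in WT libraries, and none was at 0 in a whole group. The part of fibre type in the members' differences was not tested. Without the 4 libraries richest in white adipocyte markers (Tg male 2, WT females 1 and 2, and WT male 1), Uqcrq, Atp5b, Sdhb, Cycs, Atp5j and Uqcrh were called.

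Assembly factors and coenzyme Q genes were counted alongside. The calls below are those of edgeR with all 16 libraries and TMM factors, and the alternative fits are not given for them. Of 4 complex II assembly factors 1 fell, Sdhaf3, which helps the iron-sulfur subunit mature, with 5.77 to 7.12 CPM in Tg and 7.38 to 9.45 CPM in WT libraries and no overlap (log2 fold change -0.37, SE 0.07, adjusted p = 0.000682). Of 6 complex III assembly factors 2 fell, Ttc19 (-0.29, adjusted p = 0.00253), which clears fragments of the Rieske protein, and Uqcc1 (-0.20, adjusted p = 0.00942), which helps to make cytochrome b. Of 5 ATP synthase assembly factors Tmem70 rose (0.17, adjusted p = 0.0336) and Tmem242 fell (-0.14, adjusted p = 0.0446). Tmem70 lay between 52.7 and 66.5 CPM in Tg and between 46.1 and 61.6 CPM in WT libraries. Tmem242 lay between 54.4 and 66.3 CPM in Tg and between 58.6 and 69.4 CPM in WT libraries, so the genotypes overlapped for both. Atpif1, the inhibitor of ATP hydrolysis, did not pass (log2 fold change -0.01, SE 0.08, adjusted p = 0.919). Of 13 genes of coenzyme Q synthesis and handling, which supply the ubiquinone that links complex II to complex III, 7 rose and 0 fell, with a median of 0.21. Coq6, a ring hydroxylase, rose by 0.41 (SE 0.08, adjusted p = 0.00129) and Pdss1, which makes the side chain, by 0.39 (SE 0.09, adjusted p = 0.00345). Of 36 complex I subunits 3 rose and 3 fell, and of 15 tested complex IV subunits 5 rose and 1 fell, against 17.2% and 13.3% of all tested genes.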

How the data were processed

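Polyadenylated RNA was sequenced from stranded libraries as paired reads of 75 bases. Tools in the submitters' processing notes are TopHat2 and Bowtie2 on the build mm10, after bcl2fastq and cutadapt 1.2.1. The sources used here do not give the counting program, its annotation or its use of strand. The values deposited by the authors were taken as estimated counts (expected counts), since 93.53% of nonzero values lie within 0.01 of a whole number and libraries have different totals. They were rounded to whole numbers. Genes were filtered with filterByExpr (minimum count 10, minimum total 15), which left 13666 of 19108. In R 4.3.3, edgeR 4.0.16 fitted 1 mean per genotype and sex over all 16 libraries, with TMM factors and robust quasi-likelihood dispersion. P-values were adjusted over all tested genes and are two-sided. Alternatives were RLE factors, library totals alone, no filter, DESeq2 1.42.0, limma-voom 3.58.1, each library left out, and fits without adipocyte-rich libraries or with their markers as a covariate. A loess offset for coding GC content and 2 further sets of left-out libraries were chosen after seeing the data. The GC fit used the 95.51% of tested genes with an annotated coding sequence.

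Replicates are separate animals per the labels, which name no batch. The members and gene lists were chosen with earlier results of these data known. Values per group are given for each member called in the averaged contrast, the most abundant per length of each complex, the c-subunit genes, Cyc1 and Cycs. From other lists, up to 4 called genes with the smallest adjusted p could be named, and for complexes I and IV counts alone. Gene models are those of GENCODE M21. The fit was also run on simulated counts with known changes. These held no relation to GC content, no outlying library and no shift in cell types, so they do not test the effect of such features.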

Additional observations from a re-analysis of the deposited data

Results flagged for a closer look

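Each member's CPM was searched, in each group of 4, for a library far from the other 3 by Dixon's criterion of 0.829. Of 124 such searches 4 met it, and chance gives about 1 in 20. Cycs was 437 CPM in Tg female 4, below the other Tg females (496 to 505 CPM). Uqcrq was 88.1 CPM in WT female 3, below the other WT females (162 to 174 CPM). Atp5mpl was 144 CPM in WT female 4, above the other WT females (121.0 to 125 CPM). Uqcr10 was 209 CPM in WT male 2, above the other WT males (193 to 195 CPM). WT female 3 is the library with the steepest relation to GC content, and Tg female 4 is 1 of the 3 with brown adipocyte markers; their part in these values was not tested.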

How the results depend on the processing

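Uqcrq and Atp5b passed in each of 26 alternatives for the averaged effect, and Cycs, Atp5j and Uqcrh in each except library totals alone. Uqcr10 lost its call in 20, Atp5d in 16, Sdhb in 14, Atp5g2 in 10 and Cyc1 in 8, and none of these 10 changed direction. Some members that did not pass did, and the following are examples. With library totals alone the averaged differences of Atp5e, Atp5h, Atp5k, Uqcr11 and Uqcrfs1 were 0.04, 0.06, 0.02, 0.02 and 0.02 in that order. That of Uqcrc1 was -0.02 with the GC correction and -0.07 without Tg male 2 and WT female 3. That of Atp5h was 0.03 without the adipocyte-rich libraries, and that of Uqcr11 was 0.0028 without the 3 with brown adipocyte markers. Signs also changed when single libraries were left out. The averaged difference was above 0 for 16 of the 31 members with all libraries. It was above 0 for 15 without WT female 3 or without Tg male 1, and for 17 without Tg female 2, WT male 2 or WT female 4. Leaving out each library in turn, the complex III median ran from -0.03 to 0.05. The number of members called for the averaged effect was 10, and 6 without the 4 adipocyte-rich libraries. In females it was 5, against 3 with RLE factors, 3 without a filter, 8 with DESeq2, 2 without the adipocyte-rich libraries, 2 without Tg male 2 and WT female 3, and 1 without the 3 libraries with brown adipocyte markers. In males it was 6, against 1 with library totals alone and 3 without the adipocyte-rich libraries. For the sex difference in WT it was 0, and 1 with DESeq2. Leaving out each library in turn gave 5 to 13 members for the averaged effect, 1 to 7 in females and 3 to 7 in males, with 0 for the difference between the sexes. The ratio of Cycs CPM, Tg over WT, was 0.842, against 0.881 with library totals alone and 0.884 without the adipocyte-rich libraries. The causes were not tested. Every member had at least 1651 counts in every library, and 4 animals per group limit the precision. No paired analysis was possible because the labels link no Tg mouse to a WT mouse and the replicate numbers follow accession order alone.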
